A study of Homo sapiens with 4 samples.

Results

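The transcripts of NRF2 (gene NFE2L2), of its repressor KEAP1 and of 7 classical NRF2 target genes were followed in HCC1954 cells, an established human breast cancer line, after knockdown of the palmitoyltransferase ZDHHC15. The 9 genes (NFE2L2, KEAP1, NQO1, HMOX1, GCLM, GCLC, TXNRD1, SRXN1 and SLC7A11) were chosen by symbol from textbook knowledge, with earlier results of these data known. They are 9 of the 58735 genes with a read count, and all 9 were abundant enough to be tested among the 15817 genes that were. The comparison asks whether a rise of aldo-keto reductases in these cells came with a change of the wider NRF2 programme. The lists used below were also written with earlier results known, so counts in the members and lists describe these data only.

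HCC1954 cells of both groups received a lentiviral GIPZ short hairpin vector, scrambled in shCON and directed at ZDHHC15 in shZDHHC15, and total RNA was sequenced from 2 samples per group. The design text speaks of stable knockdown, whereas the treatment text describes transient lipofection with a harvest at 36 h. According to the supplementary methods, several monoclonal cultures were screened by western blot for the hairpins, and the labels do not state whether the 2 samples of a group were separate cultures, clones or hairpins, so p-values measure only the spread between these samples. ZDHHC15 had 17617 and 15716 counts (966 and 932 CPM) in shCON and 0 counts in both shZDHHC15 samples. No remnant of the transcript was counted after knockdown, and why none remained was not tested. Library totals lay between 17560982 and 19118704 counts. At this depth a gene at 0 may have up to 3 counts, or between 0.153 and 0.178 CPM (read counts scaled to library size with TMM factors), for counting error only. All 8 epithelial and HER2-amplicon markers of the line were present, at a summed level of 19470 to 21002 CPM in shCON and 11738.5 to 11961 CPM in shZDHHC15, with 6 of them lower and 1 higher. The 6 leukocyte markers summed to between 0.474 and 0.713 CPM in shCON and between 1.63 and 1.72 CPM in shZDHHC15. CD3E was at 0, and CD14, the marker of that list that could be tested, was higher (9 and 5 against 25 and 22 counts, log2 fold change 1.61, edgeR adjusted p = 0.0159). The 7 fibroblast and endothelial markers summed to between 54.2 and 57.1 CPM in shCON and between 105 and 113 CPM in shZDHHC15. Most of that came from CDH5 (807 and 780 against 1224 and 1487 counts) and PECAM1 (75 and 56 against 666 and 405 counts), while VWF had at most 7 counts and COL3A1 at most 1 count. All 3 tested markers of that list were higher. The part of these marker changes in the results below was not tested.

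NRF2 is a transcription factor that KEAP1 binds and hands to a CUL3 ubiquitin ligase for degradation. Oxidants and electrophiles modify KEAP1, and NRF2 then accumulates, pairs with a small MAF protein and binds antioxidant response elements (AREs) near genes for glutathione synthesis, thiol reduction, quinone detoxification and NADPH supply. Because this control acts mainly on the protein, the level of NFE2L2 RNA is not a measure of NRF2 activity, and the level of its targets is the usual readout of RNA data. Several aldo-keto reductase genes are themselves known NRF2 targets.

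To show where letters of the ARE core lie, promoter windows of the members were searched for the core TGACNNNGC on both strands. RefSeq windows on GRCh38.p14, from 250 bases before a transcript start to 50 bases after it, were at hand for 7 of the 9 members (10 windows). The core was found in 4 of the 10 windows, belonging to GCLM, TXNRD1 and KEAP1, and in 13.3% of all 35116 windows. A match is a description of the letters only, and windows without a match say nothing of elements that lie farther away. The sequences below carry the matches, with the 9 letters of the core in capitals, read 5′ to 3′ on the strand of the gene. The core stands in the reverse orientation in GCLM and KEAP1, in the second TXNRD1 line, and at the end of the first TXNRD1 line. The GCLM and KEAP1 matches have the same 9 letters, TGACTAAGC, when read on the opposite strand, and lie 34 and 31 bases before their transcript starts. The 131 bases of GCLM lie at chr1:93909430-93909560 (minus strand), and those of the upstream TXNRD1 start at chr12:104215649-104215779 (plus strand), both ending at the start. The 29 bases of the downstream TXNRD1 start lie at chr12:104286920-104286948 (plus strand), and those of KEAP1 at chr19:10502784-10502812 (minus strand), and both of these shorter stretches lie on annotated exons of their own gene, since each gene has several starts. The KEAP1 window with this match is that of its downstream start, and it holds a second match, which is not shown. The window of the upstream KEAP1 start held no match.
GCLM: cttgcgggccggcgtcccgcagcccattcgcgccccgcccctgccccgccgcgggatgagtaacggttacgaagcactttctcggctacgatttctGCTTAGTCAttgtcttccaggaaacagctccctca
TXNRD1 upstream start: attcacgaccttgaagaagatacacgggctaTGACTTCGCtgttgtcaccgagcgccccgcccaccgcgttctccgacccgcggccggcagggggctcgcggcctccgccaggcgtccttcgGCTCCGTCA
TXNRD1 downstream start: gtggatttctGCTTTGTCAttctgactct
KEAP1: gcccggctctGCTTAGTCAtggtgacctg

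Of the 9 genes, 5 were higher and 1 was lower in shZDHHC15 than in shCON cells at an adjusted p under 0.05 from edgeR's quasi-likelihood test over all genes. Of all 15817 tested genes, 21.7% were higher and 20.3% were lower by the same criterion. The genes that rose encode the glutathione-synthesizing enzyme pair GCLM and GCLC, the cystine carrier SLC7A11, the quinone reductase NQO1 and the thioredoxin reductase TXNRD1, with rises between 1.31-fold and 2.66-fold. KEAP1 fell to 0.644 of its shCON level. NFE2L2, HMOX1 and SRXN1 did not pass the test. The median log2 fold change of the 9 genes was 0.39, against 0.02 for all genes tested. In 3 of the 9 genes the log2 fold change was above 1 with an adjusted p under 0.05, as in 7.51% of all tested genes. The CPM values of the 2 groups did not overlap in any of the 9 genes, and they did not overlap in 72.5% of all tested genes either.

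**Figure D1:**
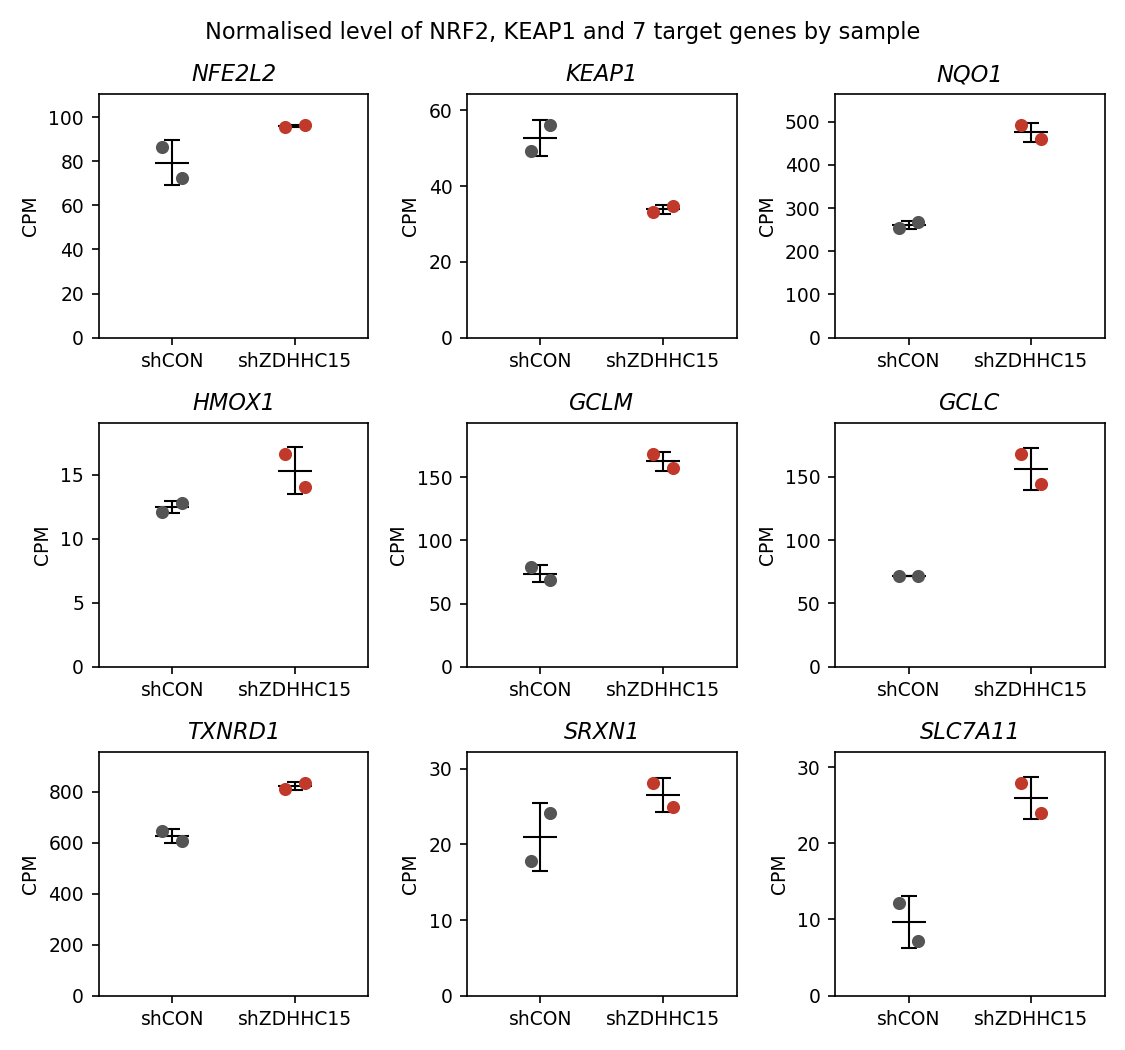
CPM (y axis, linear and from 0) of the 9 genes in each of the 2 shCON (grey) and 2 shZDHHC15 (red) samples, with the mean (long bar) and SD (short bars). KEAP1 is the gene whose shZDHHC15 points lie below the shCON points, and GCLM, GCLC and SLC7A11 show mean levels more than 2-fold above shCON.

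The regulator pair was read first. NFE2L2 (ENSG00000116044, chromosome 2, 177227595 to 177392697, minus strand, GRCh38) encodes NRF2 itself and had 1576 and 1219 counts in shCON and 1777 and 1889 counts in shZDHHC15. Its level was 79.4 ± 10.0 CPM in shCON and 95.8 ± 0.564 CPM in shZDHHC15 (SD, n = 2). The shCON samples differed from each other by almost as much as the group means did, and the log2 fold change of 0.27 (95% interval 0.04 to 0.50) had an adjusted p of 0.0529 and an unadjusted p of 0.0225 in edgeR's quasi-likelihood test. It was called higher when shCON replicate 1 was left out (0.38) and was 0.14 without shCON replicate 2. NFE2L2 shares 54 exon bases with the opposite-strand gene AGPS, and the strand setting of the counting is not given in the sources used here. It also shares 1054 exon bases with AC019080.1 on its own strand, which had at most 8 counts in a sample. The opposite-strand AC079305.1 shares 190 bases and had at most 14 counts.

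KEAP1 (ENSG00000079999, chromosome 19, 10486120 to 10503741, minus strand), the adaptor that presents NRF2 for degradation, had 898 and 945 counts in shCON and 616 and 680 counts in shZDHHC15. Both shZDHHC15 samples lay below both shCON samples, at 33.9 ± 1.10 against 52.6 ± 4.78 CPM (SD, n = 2). The log2 fold change was -0.64 with a standard error of 0.114 and an edgeR adjusted p of 4.33e-04. Fits that omitted 1 sample gave -0.76 to -0.55. No exon of another annotated gene overlaps KEAP1.

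Among the targets, the genes of glutathione supply moved most. GCLM (ENSG00000023909, chromosome 1, 93885205 to 93909456, minus strand), the modifier subunit of glutamate-cysteine ligase, had 1433 and 1160 counts in shCON and 3132 and 3091 counts in shZDHHC15. Its catalytic partner GCLC (ENSG00000001084, chromosome 6, 53497341 to 53616970, minus strand) had 1309 and 1214 counts in shCON and 3124 and 2835 counts in shZDHHC15. For both subunits every shZDHHC15 sample stood at about 2-fold the level of either shCON sample. GCLM rose from 73.7 ± 6.95 to 163 ± 7.59 CPM (SD, n = 2), by 1.14 ± 0.102 on the log2 scale (± standard error), with an edgeR adjusted p of 6.31e-07. GCLC rose from 71.9 ± 0.12 to 156 ± 16.5 CPM (SD, n = 2), by 1.12 ± 0.103 on the log2 scale (± standard error), with an edgeR adjusted p of 8.76e-07. The 95% intervals of the subunits, 0.93 to 1.36 and 0.90 to 1.34, overlapped almost wholly. Exons of AL033397.1 and AL033397.2 overlap GCLC, each with at most 11 counts in a sample.

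SLC7A11 (ENSG00000151012, chromosome 4, 138164097 to 138242349, minus strand), the light chain of the cystine/glutamate exchanger xCT that brings in cystine for glutathione, had 221 and 122 counts in shCON and 519 and 471 counts in shZDHHC15. Its log2 fold change of 1.41 (95% interval 1.01 to 1.81, adjusted p = 3.41e-05) was above that of each other member, and 95.2% of all tested genes had a log2 fold change at or below it. Its samples were spread widely for its level, at 9.68 ± 3.46 against 25.9 ± 2.74 CPM (SD, n = 2), and the log2 fold change was 1.81 without shCON replicate 1 and 1.08 without shCON replicate 2. The transcript SLC7A11-AS1 overlaps its exons with at most 10 counts in a sample.

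NQO1 (ENSG00000181019, chromosome 16, 69706996 to 69726951, minus strand) reduces quinones and is the textbook reporter of NRF2. It had 4630 and 4510 counts in shCON and 9148 and 9033 counts in shZDHHC15, so the samples of a group lay close together and far from the other group. It rose from 261 ± 9.48 to 476 ± 22 CPM (SD, n = 2), by 0.87 ± 0.0889 on the log2 scale (± standard error), with an edgeR adjusted p of 2.66e-06. Fits that omitted 1 sample gave 0.80 to 0.91. An antisense gene model with no counts, AC092115.2, overlaps its exons.

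The thiol-reducing members moved less. TXNRD1 (ENSG00000198431, chromosome 12, 104215779 to 104350305, plus strand), the selenoenzyme that reduces cytosolic thioredoxin, had 11749 and 10246 counts in shCON and 15105 and 16347 counts in shZDHHC15. Its 626 ± 26.2 CPM rose to 822 ± 15.2 CPM (SD, n = 2), by 0.39 ± 0.0853 on the log2 scale (± standard error; edgeR adjusted p = 0.0019), a small rise with little spread. SRXN1 (ENSG00000271303, chromosome 20, 646615 to 653370, minus strand), sulfiredoxin, which repairs overoxidized peroxiredoxins, had 324 and 408 counts in shCON and 523 and 490 counts in shZDHHC15. The log2 fold change of SRXN1 was 0.34 (95% interval 0.02 to 0.66, adjusted p = 0.0816), and it moved from 0.10 without shCON replicate 1 to 0.57 without shCON replicate 2, where it was called. The gene model AL121758.1 shares 2292 exon bases with SRXN1, so reads of these genes could not be told apart by position, and it had at most 8 counts in a sample.

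HMOX1 (ENSG00000100292, chromosome 22, 35380361 to 35394214, plus strand) encodes the inducible heme oxygenase, which the repressor BACH1 also controls. It had 221 and 216 counts in shCON and 309 and 275 counts in shZDHHC15, that is 12.5 ± 0.483 and 15.3 ± 1.83 CPM (SD, n = 2). Its log2 fold change was 0.30, and the 95% interval of -0.03 to 0.62 spans no difference as well as a rise of over 1.5-fold. The adjusted p was 0.135 in edgeR's test.

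**Figure D2:**
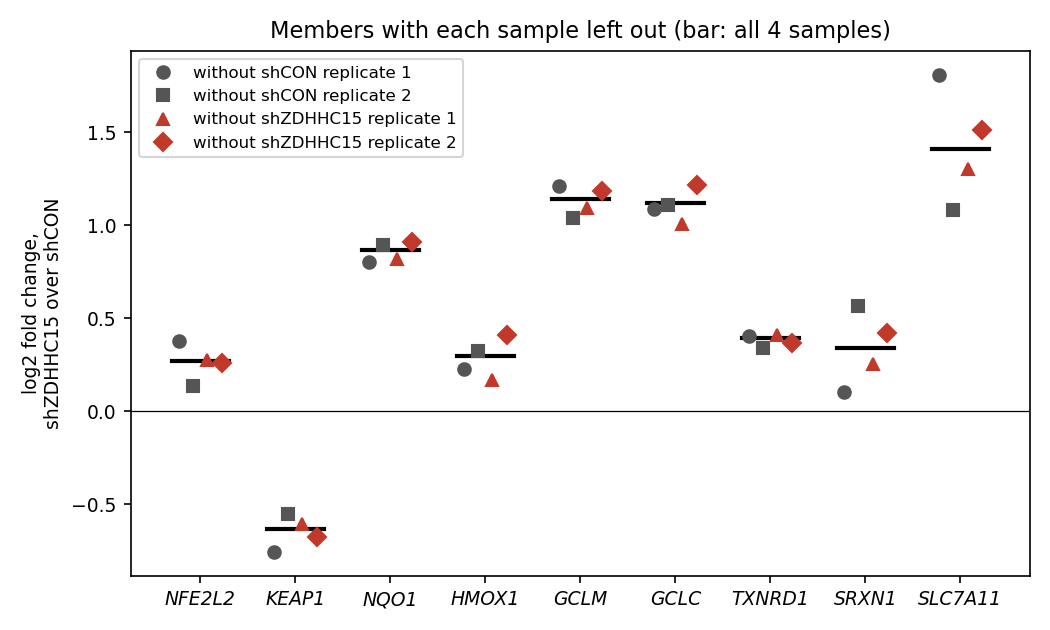
Log2 fold change (shZDHHC15 over shCON, y axis) of each of the 9 genes from all 4 samples (black bar) and with each sample left out (symbols, grey for shCON and red for shZDHHC15 samples). The 4 symbols of NQO1, TXNRD1, GCLM, GCLC and KEAP1 lie near their bar, and those of SRXN1 and SLC7A11 spread most, from 0.10 to 0.57 and from 1.08 to 1.81.

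Levels were also set per length, as CPM per kilobase of merged exons, to place genes of unlike length side by side. The merged length counts every annotated exon of a gene, and the transcripts in use may be shorter. The order of genes is therefore approximate, and which exons were in use was not tested. In shCON cells TXNRD1 (93.3 ± 3.90 CPM per kb) stood above NQO1 (80.1 ± 2.91 CPM per kb), and in shZDHHC15 cells NQO1 (146 ± 6.76 CPM per kb) stood above TXNRD1 (123 ± 2.27 CPM per kb; SD, n = 2). In neither group did the values of that pair overlap. KEAP1, GCLM and NFE2L2 followed in shCON cells at 14.0, 13.6 and 13.3 CPM per kb and overlapped as neighbours in the order. GCLC (8.31 CPM per kb) and SRXN1 (7.78 CPM per kb) overlapped too, and HMOX1 (5.18 CPM per kb) and SLC7A11 (1.00 CPM per kb) were lowest. In shZDHHC15 cells the order after NQO1 and TXNRD1 was GCLM (30.0 CPM per kb), GCLC (18.1), NFE2L2 (16.03), SRXN1 (9.83), KEAP1 (9.0), HMOX1 (6.36) and SLC7A11 (2.69 CPM per kb), with no overlap between neighbours. KEAP1 thus went from the third to the seventh place of the 9. Differences between genes were not tested.

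Most of the tested aldo-keto reductases, NADPH-dependent carbonyl reductases, were higher. Of 10 listed genes 8 were tested, and 6 were higher and 1 was lower (21.7% and 20.3% over all tested genes), with a median log2 fold change of 2.83. AKR1C1 had 284 and 254 counts in shCON and 7148 and 6082 counts in shZDHHC15 (log2 fold change 4.50, 95% interval 4.22 to 4.78, adjusted p = 4.9e-12). AKR1C2 rose by 5.29, AKR1C3 by 3.46, AKR1B10 by 3.39, AKR1B15 by 2.27 and AKR1B1 by 1.24 on the log2 scale. AKR1C1 and AKR1C2 are 97.1% identical over 3770 bases, and their reads could be split between them. The 95% interval of AKR1B1, 0.71 to 1.77, overlapped those of SLC7A11, GCLM, GCLC and NQO1, whereas the intervals of the other 5 that rose began at 1.87 or above, beyond the upper bound of SLC7A11 at 1.81. Differences between these genes were not tested. AKR1A1, a housekeeping aldehyde reductase, had a log2 fold change of -0.11 (95% interval -0.33 to 0.12). AKR7A2 was lower (-0.32, adjusted p = 0.0263), a call lost without shCON replicate 2 (-0.23), without shZDHHC15 replicate 1 (-0.32), without shZDHHC15 replicate 2 (-0.34) and with library size as the only scaling (-0.25). AKR1C4 had at most 2 counts and AKR7A3 at most 14 counts in a sample, and neither was tested.

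**Figure D3:**
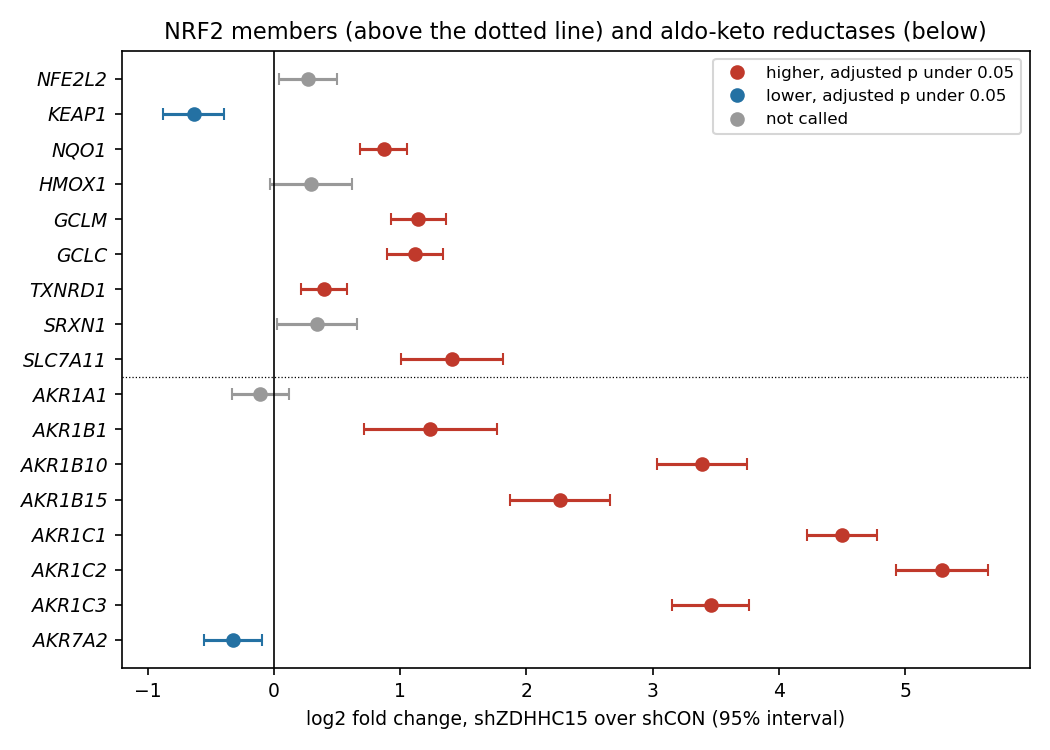
Log2 fold change (shZDHHC15 over shCON, x axis) with its 95% interval for the 9 NRF2 genes and the 8 tested aldo-keto reductases, red where higher, blue where lower and grey where not called at an adjusted p of 0.05. AKR1C and AKR1B10 points lie at 3.39 to 5.29, to the right of SLC7A11 at 1.41.

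Of 16 other genes that control NRF2 or share its sites, all tested, 6 were higher, 5 were lower and 5 were not called, with a median log2 fold change of -0.04. Over all tested genes 21.7% were higher and 20.3% lower, so calls in both directions are not particular to this list. MAFF and MAFK, small MAF partners of NRF2, fell, with log2 fold changes of -1.03 and -0.85 (adjusted p = 3.45e-06 and 5.49e-05). MAFF went from 3483 and 3539 counts in shCON to 1640 and 2113 counts in shZDHHC15. MAFG had a log2 fold change of -0.24 (95% interval -0.46 to -0.03, adjusted p = 0.0641) and was called lower without shCON replicate 1 (-0.38). MAFK shares 809 exon bases with the opposite-strand gene TMEM184A, and MAFG 105 with SIRT7 on its own strand. BACH1, which competes with NRF2 for its sites, rose by 0.52 (adjusted p = 0.00251). SQSTM1, the autophagy receptor p62 that binds KEAP1 and is an NRF2 target, rose by 0.49 (adjusted p = 5.47e-04) from 6840 and 7077 to 10257 and 11068 counts, with 1582 exon bases shared with MRNIP on the opposite strand. EP300, a coactivator acetylase, rose by 0.61 and CUL3, the scaffold of the KEAP1 ligase, by 0.33 (adjusted p = 0.00102 and 0.0244). RBX1, the RING subunit of that ligase, fell by 0.47 (adjusted p = 0.0031). PALB2 and DPP3, proteins that bind KEAP1, were higher by 0.64 and lower with a log2 fold change of -0.36, CREBBP was higher by 0.44 and BACH2 was lower with -0.83. Without shZDHHC15 replicate 1 the calls of CUL3 (0.21), PALB2 (0.48), DPP3 (-0.30), CREBBP (0.32) and BACH2 (-0.52) were lost. Fewer genes were also called over all tested genes in that fit, in both directions. CREBBP was also lost without shCON replicate 2 (0.27) and BACH2 without shCON replicate 1 (-0.44), and BTRC, a ligase subunit with a log2 fold change of 0.24, was called without shCON replicate 1 (0.42). The related factors NFE2L1 (0.06, 95% interval -0.13 to 0.25) and NFE2L3 (-0.18, 95% interval -0.48 to 0.13) and the kinase GSK3B (-0.13, 95% interval -0.35 to 0.09) were not called.

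The wider target classes were read from lists of general knowledge, written with earlier results of these data known. Of 15 tested quinone and xenobiotic enzymes and related targets, 13 were higher and 0 lower (median log2 fold change 0.66), where 21.7% and 20.3% of all tested genes were. The largest rises were those of PIR, a redox-sensitive iron protein, by 2.40 (adjusted p = 1.24e-05), and of the fatty acid hydroxylase CYP4F11 by 2.03 (adjusted p = 8.05e-07). PIR had 21 and 16 counts in shCON and 103 and 111 counts in shZDHHC15. Of 9 tested genes of NADPH supply, 7 were higher and 1 lower (median 0.52). PGD, an NADPH-forming enzyme of the pentose phosphate pathway, rose by 1.27 (adjusted p = 1.75e-07), from 2716 and 2724 to 7525 and 6782 counts, and cytosolic IDH1 by 1.03 (adjusted p = 8.97e-06). PGLS, the lactonase of the pentose phosphate pathway, had a log2 fold change of -0.44 (adjusted p = 0.00483), a call lost without shZDHHC15 replicate 2 (-0.37).

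Glutathione genes outside the 9 went both ways. Of 26 tested, 11 were higher and 4 lower (21.7% and 20.3% over all tested genes), with a median log2 fold change of 0.26. ABCC2, an efflux pump of glutathione conjugates, rose by 3.03 (adjusted p = 8.88e-08), from 27 and 27 to 234 and 250 counts, and the epithelial peroxidase GPX2 by 2.50 (adjusted p = 7.33e-05), from 9 and 16 to 85 and 70 counts. GPX1, the main cytosolic glutathione peroxidase, fell by 1.00 (adjusted p = 1.45e-06). SLC3A2, the heavy chain that carries SLC7A11 to the membrane, fell by 0.89 (adjusted p = 3.46e-06), from 25649 and 27007 counts in shCON to 14463 and 16686 counts in shZDHHC15. The 2 chains of xCT thus moved in opposite directions, and SLC3A2 also serves other carriers. Glutathione reductase GSR, singled out after its values were seen, rose by 0.78 (adjusted p = 2.41e-05).

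Of 15 thioredoxin and peroxiredoxin genes, 3 were higher and 3 lower (median log2 fold change -0.08), shares close to the 21.7% and 20.3% of all tested genes. The peroxidases PRDX5 and PRDX4 fell, with log2 fold changes of -0.77 and -0.47 (adjusted p = 1.78e-04 and 9.52e-04). SESN1, a sestrin, was higher by 0.82 and TXNIP, the thioredoxin-binding protein, by 0.42 (adjusted p = 0.0205 and 0.0373), and both calls were lost without shZDHHC15 replicate 1 (0.45 and 0.12). Of 10 genes of heme and iron handling, 3 were higher and 1 lower (median 0.25), against the same shares of all tested genes. The ferritin heavy chain FTH1 rose by 0.49 (adjusted p = 3.44e-04), the heme-forming ferrochelatase FECH by 0.54 (adjusted p = 0.00136), and the constitutive heme oxygenase HMOX2 fell by 0.50 (adjusted p = 0.00256). FTH1 shares 1267 exon bases with BEST1, and HMOX2 228 with NMRAL1, on opposite strands.

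ATF4 is the factor of the amino acid stress response, and SLC7A11 is among its known targets. Of 14 tested genes of the ATF4 list 9 were lower, 2 were higher and 3 were not called (20.3% lower and 21.7% higher over all tested genes), with a median log2 fold change of -0.42. ATF3, a stress-induced factor, and CTH, which makes cysteine from cystathionine, fell, with log2 fold changes of -1.69 and -1.59 (adjusted p = 7.1e-09 and 7.74e-06), and ATF4 itself, named after its values were seen, had one of -1.05 (adjusted p = 2.93e-07), from 11389 and 11146 to 5768 and 6142 counts. VLDLR and DDIT4 rose by 1.79 and 1.03 (adjusted p = 6.47e-07 and 5.11e-05), each with an antisense gene over its exons. Among 3 tested superoxide dismutase and catalase genes, 2 were higher and 0 lower (median 0.55). SOD2, the mitochondrial dismutase, rose by 2.09 (adjusted p = 3.29e-10), from 4477 and 3689 to 18858 and 18883 counts, and CAT by 0.55 (adjusted p = 0.00218). SOD2 stands under 2 identifiers, of which that with more counts was used, and shares 298 exon bases with WTAP on the opposite strand.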

How the data were processed

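HCC1954 RNA of 2 shCON and 2 shZDHHC15 samples was analysed. The deposited table holds raw counts of reads per gene, and the submitters' processing notes name HISAT2, StringTie, SAMtools and hg38, without roles. The counting tool and strand setting are not given in the sources used here. All 58735 identifiers, starts, ends and lengths matched GENCODE release 29 of GRCh38, and the number of unused per-sample columns was 0.

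Genes passing filterByExpr (15817) were tested in edgeR 4.0.16 (R 4.3.3, limma 3.58.1) with TMM factors, glmQLFit and glmQLFTest, no covariates, and Benjamini-Hochberg adjustment over all of them, at 0.05. Standard errors came from the fold change and F statistic, and 95% intervals from the total degrees of freedom. The chi-square per degree of freedom between samples of a group was 8.32 for shCON and 6.79 for shZDHHC15, well above counting noise, so the samples were kept separate. The edgeR and DESeq2 fits were tested on simulated counts with known changes. Same-numbered samples deviated from their group means with a correlation of 0.0610 across genes, and the labels tie the numbers to nothing shared, so no block was used.

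The members and lists were chosen with earlier results of these data known. Genes named are the 9 members, the aldo-keto reductases, the regulators, and up to 2 largest called rises and 2 largest called falls in each other list among genes averaging 20 counts or more in the group where they were higher, besides exceptions marked in the text. Near-identical stretches (at least 150 bases at 97% identity) of the members and aldo-keto reductases were sought with blastn 2.17.0. Alternatives were DESeq2 1.42.0 size factors and its Wald test, library size only, no filter, a filter of 10 counts or more in every sample, edgeR's legacy quasi-dispersion, a replicate block and fits without each sample.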

Additional observations from a re-analysis of the deposited data

How the results depend on the processing

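With 2 samples per group, a fit that leaves a sample out assumes that the lone sample varies like the other group. NQO1, GCLM, GCLC, TXNRD1, SLC7A11 and KEAP1 kept their direction and call under all 11 alternatives, and between 5 and 7 members were called higher and 1 lower. NFE2L2 passed the threshold with library size only (log2 fold change 0.34), at least 10 counts in every sample (0.28) and the replicate block (0.28), and lay between 0.14 and 0.38 with samples left out. SRXN1 passed it with library size only (0.42), with a range of 0.10 to 0.57. The members' median was 0.47 with library size only and 0.41 to 0.57 with samples left out. With the replicate block 3723 genes were called higher and 3502 lower, and with no filter on low counts 2282 higher. Library size only moved the share of higher genes among all calls from 51.6% to 60.7%. It gave 7 higher members, and 3926 higher genes over all, against 3427 in the main fit. MAFG was called lower with the replicate block (-0.24, edgeR adjusted p = 0.0292). The quinone list had 11 higher genes with no filter and 12 by the DESeq2 Wald test, against 13 in the main fit. The ATF4 list had 7 lower genes with no filter or with library size only, against 9 in the main fit. Over all genes, no filter called 2350 lower and library size only 2545, against 3217 in the main fit. The thioredoxin list had 1 higher gene by DESeq2, 0 with no filter, and 0 to 3 with samples left out. AKR7A2 was not called with library size only or no filter, which left 0 lower aldo-keto reductases, as did 3 of the fits without a sample (0 to 1). The number of called regulators and of lower NADPH genes changed with samples left out, as did the number of calls over all genes. NFE2L1 changed sign without shCON replicate 1 (-0.0045) and without shZDHHC15 replicate 1 (-0.013), with 0.12 at the other end of its range. Among the other named genes, 13 calls were lost or gained over the alternatives that kept all samples. The cause was not tested for any of these. AKR1C4 and AKR7A3 did not pass the filter on low counts, and no test of them is given.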

Other observations

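Some genes of the glutathione, quinone and superoxide dismutase classes had almost no reads. GSTP1, GSTM1 and SOD3 are listed at 0 counts in all 4 samples, CBR1 at no more than 2 counts and GPX7 at no more than 3 counts in a sample.

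The 5 protein-coding genes whose pattern over the 4 samples was most like that of NFE2L2 were ITCH, MYO5A, EXOC5, LUC7L3 and USP1. The measure was the root mean square distance of centred log2 CPM, which ran from 0.0116 for ITCH to 0.0153 for USP1 among 3741 genes of similar abundance. Their log2 fold changes lay between 0.28 and 0.29, near that of NFE2L2 because the same 4 samples were used to choose them. ITCH, EXOC5, LUC7L3 and USP1 were called, with adjusted p between 0.0445 and 0.0489. MYO5A was not called (adjusted p = 0.0679, against 0.0529 for NFE2L2).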
